A study of Homo sapiens with 12 samples.

Results

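The mixed lineage leukemia gene KMT2A, the partner genes with which it fuses in acute leukemia and the chromatin cofactors of the fusion proteins were examined in the leukemia lines MOLM-13 and THP-1 under Jiyuan oridonin A (JOA), an ent-kaurene diterpenoid. The members were the 9 genes KMT2A, MLLT3, MLLT1, MLLT10, AFF1, AFF4, DOT1L, MEN1 and PSIP1, taken by gene symbol from a table of 20030 genes, and each had 1 row. mRNA-seq was performed on 3 control libraries and 3 JOA libraries of each line. Control cells of both lines received DMSO for 48 h by the labels, while a figure legend of the study gives a longer time. Over the same time JOA was given at 0.5 μM to MOLM-13 and at 2 μM to THP-1 cells, so that line and dose differ together. MOLM-13 and THP-1 are acute myeloid leukemia lines with an MLL rearrangement; MOLM-13 also has the FLT3/ITD mutation and THP-1 has wild-type FLT3. Each line derives from 1 leukemia. The study says in general that experiments were repeated, and the legend of its mRNA-seq figure speaks of 2 independent experiments. No source used here ties the 3 libraries of a group to separate cultures. If they were not separate, p-values measure only a technical spread between libraries.

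KMT2A is a histone H3 lysine 4 methyltransferase that keeps HOXA genes and MEIS1 active in blood progenitors. In leukemia its amino-terminal part is joined to a partner protein, and both MOLM-13 and THP-1 are known to carry the fusion with MLLT3. The part of KMT2A that is kept binds menin (MEN1), and this complex binds LEDGF (PSIP1), which tethers it to chromatin. The partners MLLT3 (AF9), MLLT1 (ENL), AFF1 (AF4) and AFF4 belong to the super elongation complex, which releases paused RNA polymerase II, while MLLT10 (AF10) works with DOT1L, the histone H3 lysine 79 methyltransferase. MLLT3 and MLLT1 are paralogs, as are AFF1 and AFF4. The values per gene do not separate native from fusion transcripts, so the KMT2A and MLLT3 levels below are sums of both as far as the counting took them in.

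All levels are FPKM, fragment numbers scaled to gene length and to library size, so that genes can be compared with each other. Within a line any 2 libraries correlated at 0.995 to 0.998 on the log2 scale. The relative depth, read from the steps between low values, was about 0.869 to 1.00 of control replicate 1 in MOLM-13 cells and 0.936 to 1.07 in THP-1 cells, and the total depth is unknown. The 9 myeloid marker genes checked all had a mean above 0.1 FPKM in each group. Their summed level of 868 to 3538 FPKM was mostly LYZ (755 to 3292 FPKM), while CD14 had means of 0.144 to 0.645 FPKM. HOXA9 and MEIS1, marks of KMT2A-rearranged leukemia, were expressed in both lines. Of 9 genes that mark other cell types, 4 or 5 were at 0 in every library of a group, among them HBB. The summed level of that list was 9.04 to 12.1 FPKM in MOLM-13 cells and 0.359 to 3.60 FPKM in THP-1 cells, and in MOLM-13 cells it was mostly KRT18 and CD3D. Whether this bears on the differences between the lines was not tested.

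The members covered a wide range of levels, and MLLT3 was the lowest of the 9 in all 4 groups. In control MOLM-13 cells MLLT1 was highest at 21.5 ± 0.991 FPKM (SD, n = 3), followed by DOT1L at 16.7 ± 0.685 and AFF1 at 16.5 ± 0.905, whose ranges overlapped. MEN1 (12.2 ± 1.55 FPKM), PSIP1 (8.54 ± 0.843), MLLT10 (6.80 ± 0.487), AFF4 (4.39 ± 0.481), KMT2A (2.88 ± 0.178) and MLLT3 (1.23 ± 0.125) came next, and no other neighbours in this order overlapped. Of the 11682 genes with a mean of at least 0.1 FPKM in these cells, 79.8% lay below MLLT1 and 19.3% below MLLT3. In control THP-1 cells PSIP1 was highest at 19.3 ± 1.01 FPKM (SD, n = 3), before DOT1L (16.6 ± 0.411) and MLLT1 (14.9 ± 0.693). AFF1 (11.5 ± 1.28 FPKM) and MEN1 (9.85 ± 0.697) overlapped each other, and AFF4 (7.17 ± 0.458), MLLT10 (5.82 ± 0.223), KMT2A (3.998 ± 0.163) and MLLT3 (1.22 ± 0.106) followed without overlap. The order of the 9 genes in each line was the same in the JOA libraries as in the control libraries. MLLT3, the partner in the fusion that both lines are known to carry, was thus the least abundant member in each line, and its paralog MLLT1 was 12.2 ± 0.884 times as abundant in control THP-1 cells and 17.6 ± 2.53 times in control MOLM-13 cells (SD, n = 3).

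**Figure D1:**
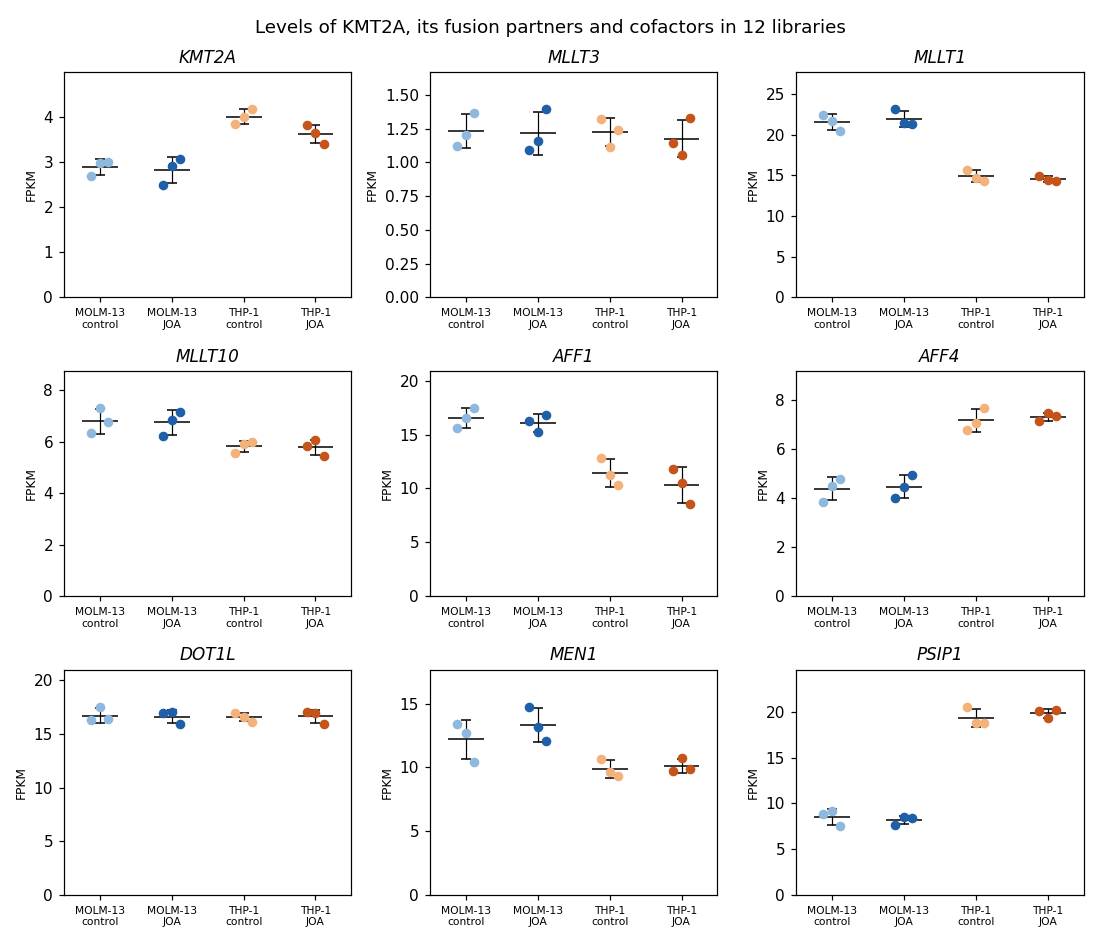
FPKM of each of the 9 genes (vertical axes, each from 0) in the 4 groups (horizontal axes); points are libraries, long bars are means and error bars are SD of 3 libraries. PSIP1 lay between 7.58 and 9.17 FPKM in the MOLM-13 libraries and between 18.8 and 20.5 in the THP-1 libraries, while DOT1L lay between 15.9 and 17.5 in all 12.

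The first comparison asked whether JOA changed the expression of these genes within a line. All genes with a mean of at least 0.1 FPKM entered the test, which was limma applied to log2(FPKM + 0.1). Calls required that the p, adjusted over all genes by the Benjamini-Hochberg method, fell below 0.05 and that the log2 fold change reached 0.58 in either direction. In MOLM-13 cells limma called 0 of the 9 genes. Each adjusted p by limma was 1.00, and none of the genes passed 0.05 before adjustment. Groups without overlap were seen in 0 of 9, against 9.65% of all genes. Of all 11693 genes tested 0% were called, while 481 (4.11%) passed 0.05 before adjustment. With another test, DESeq, the study reported more genes changed by JOA in each line than limma called here. Fold changes of the members lay between -0.06 for PSIP1 and 0.13 for MEN1 on the log2 scale, with a median of -0.01, against 0.01 over all genes tested.

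In THP-1 cells 0 of the 9 genes were called, as against 0.134% of 12712 genes tested. In the fit without the replicate block 0 had an unadjusted p under 0.05, against 16.9% of all genes. The members' adjusted p by limma lay between 0.397 and 0.974, and their log2 fold changes between -0.16 for AFF1 and 0.04 for PSIP1, with a median of -0.01 against 0.02 over all genes tested. With the replicate number as a block 0 of the 9 were called in either line. The 95% confidence intervals of all 18 fold changes, from the fit without the block, stayed within the threshold of 0.58 in size. Their outermost bounds were -0.33 and 0.38 in MOLM-13 cells and -0.45 and 0.23 in THP-1 cells. That fit leaves out the pairing of libraries by replicate number, and the standard errors were smaller with the block. Intervals and unadjusted p with the block are not given. The counts of unadjusted p under 0.05 in both lines therefore hold only for the fit without the block. In bulk RNA a small change in every cell and a larger one in a share of the cells cannot be told apart.

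KMT2A itself was the member whose THP-1 groups came apart. Its values were 3.84, 3.998 and 4.16 FPKM in control replicates 1, 2 and 3 and 3.82, 3.63 and 3.40 FPKM in the JOA replicates. All 3 JOA values were below the lowest control value, the highest of them only just. The log2 fold change was -0.14 (standard error 0.08, 95% interval -0.32 to 0.04), and the adjusted p by limma was 0.397. KMT2A was the 1 member of 9 whose THP-1 groups did not overlap, against 23.4% of all genes, 8.81% with JOA entirely below control. In MOLM-13 cells KMT2A was at 2.68, 2.97 and 3.00 FPKM in control libraries and at 2.49, 2.91 and 3.06 with JOA, so that the groups overlapped.

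AFF1, the scaffold of the super elongation complex that is also the partner of KMT2A in infant lymphoblastic leukemia, had the largest fold change of the members in THP-1 cells. It was at 12.8, 11.2 and 10.3 FPKM in the control replicates and at 11.8, 10.5 and 8.59 FPKM in the JOA replicates. The groups overlapped, but the JOA value was lower than the control value of the same number in 3 of 3 pairs, by 0.09 to 0.26 on the log2 scale. Its log2 fold change was -0.16 with a standard error of 0.12, and the adjusted p by limma was 0.575. Blocked by replicate number, the standard error was 0.05 and the adjusted p by limma was 0.125. KMT2A and MLLT1 were also lower with JOA in 3 of 3 THP-1 pairs, with smallest pair differences of -0.007 and -0.003. That makes 3 of the 9 members, while 19.4% of all genes tested did so. Counting either direction, all THP-1 pairs went 1 way in 3 of the 9 members and in 48.8% of all genes. In MOLM-13 cells AFF1 stood at 15.6, 16.5 and 17.4 FPKM in control libraries and 16.2, 15.2 and 16.8 FPKM with JOA, and was lower in 2 of 3 pairs.

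MEN1 had the largest fold change of the members in MOLM-13 cells. Its control values were 13.4, 12.7 and 10.5 FPKM and its JOA values 14.7, 13.2 and 12.0 FPKM. The groups overlapped, and JOA was higher in 3 of 3 pairs, as in 18.5% of genes tested. Counting either direction, all MOLM-13 pairs went 1 way in 1 of the 9 members and in 34.2% of all genes. At a log2 fold change of 0.13 and a standard error of 0.11, limma gave adjusted p = 1.00. Blocked by replicate number, the standard error was 0.05 and the adjusted p by limma was 0.433. In THP-1 cells MEN1 was at 10.6, 9.62 and 9.30 FPKM in control libraries and at 9.70, 10.7 and 9.91 FPKM with JOA, and the groups overlapped again.

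The other 6 members had fold changes under 0.06 in size on the log2 scale in both lines, below the largest of KMT2A, AFF1 and MEN1. MLLT3 went from 1.12, 1.21 and 1.37 FPKM to 1.09, 1.16 and 1.39 FPKM in MOLM-13 cells. In THP-1 cells it went from 1.32, 1.11 and 1.24 FPKM to 1.146, 1.05 and 1.33 FPKM, with overlap in both lines. DOT1L had the smallest fold change in both lines, -0.01 in MOLM-13 cells (standard error 0.06) and 0.01 in THP-1 cells (standard error 0.05). MLLT1, MLLT10, AFF4 and PSIP1 had log2 fold changes of -0.06 to 0.04 in the 2 lines, and all had overlapping groups.

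**Figure D2:**
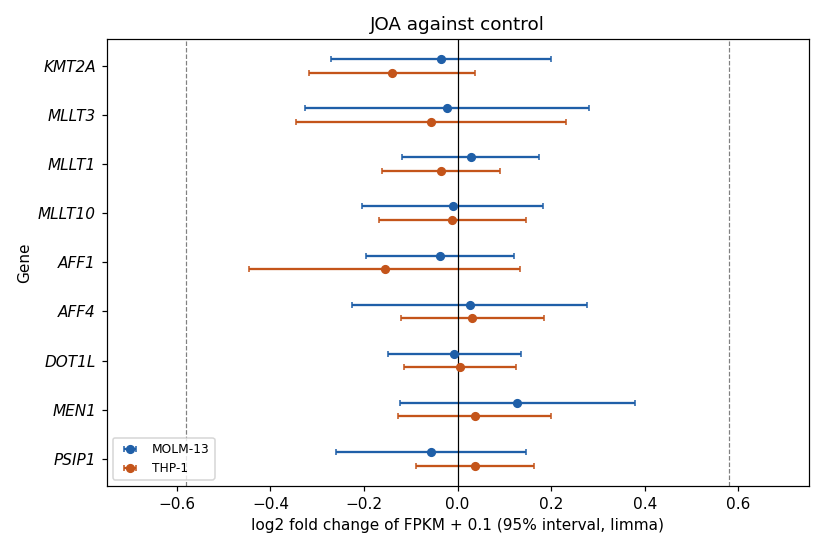
log2 fold change of JOA against control (horizontal axis, FPKM + 0.1) for each gene (vertical axis) in MOLM-13 and THP-1 cells; points are limma estimates, bars 95% intervals, and dashed lines mark the fold threshold of 0.58. All 18 intervals, from the fit without the replicate block, lie between the dashed lines and cross 0.

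A further fit of all 12 libraries asked whether the lines responded differently to JOA, by the interaction of line and treatment. By limma without the replicate block 0 of the 9 members passed at an adjusted p of 0.05, and 0 passed before adjustment. Of all 12626 genes 0% passed, 7.24% (914) did so before adjustment, and blocking by replicate number gave 6 (0.0475%) and again 0 members. The interaction of the members lay between -0.12 for AFF1 and 0.09 for PSIP1 on the log2 scale, with 95% intervals between -0.45 and 0.35.

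Between the lines, THP-1 was compared with MOLM-13 separately in control and in JOA libraries. In control libraries PSIP1 and AFF4 were higher in THP-1 cells and passed both thresholds. KMT2A was also higher at an adjusted p under 0.05, and MLLT1, AFF1, MEN1 and MLLT10 were lower, all with a fold change under the threshold. MLLT3 and DOT1L did not pass. In all, 2 of 9 members were called, both higher, while 44% of 12635 genes tested were called, 25% of them higher and 19% lower as shares of all tested. On the adjusted p alone 7 of 9 passed, as did 71.2% of all genes, so the members' share was close to that of the table as a whole. The groups did not overlap for 6 of 9 members and for 74.8% of all genes. The median log2 fold change of the members was -0.01, against 0.06 over all genes.

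The same difference was measured a second time in the JOA libraries, which share no library with the control comparison but differ in dose. Control and JOA libraries of the same number deviated together within a line (correlation 0.360 to 0.529 for MOLM-13, 0.263 to 0.510 for THP-1). The second measurement is therefore not independent of the first. In the JOA libraries 4 of 9 members were called, PSIP1 and AFF4 higher and AFF1 and MLLT1 lower, with 45% of 12606 genes called (26.1% higher and 18.9% lower). On the adjusted p alone 7 members passed again, among 73.8% of all genes, and 7 of 9 did not overlap, among 77.1%. AFF1 and MLLT1 had fold changes on either side of the fold threshold in the 2 comparisons, and their interaction of line and treatment did not pass. MLLT3 and DOT1L passed in neither set of libraries, and the sign of both turned with the scaling. The 7 others kept their direction under each of the 3 rescalings tried, although rescaling to TPM shifted the median of all genes by 0.11 in control and 0.15 in JOA libraries, and quantile normalization by -0.09 and -0.11. Quantile normalization lowered the share of higher genes among those called from 56.8% to 45.8% in control and from 58.02% to 46.5% in JOA libraries. Under it MLLT3 stood at -0.38 in JOA libraries, with adjusted p = 0.0292 by limma and a fold change under the threshold.

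**Figure D3:**
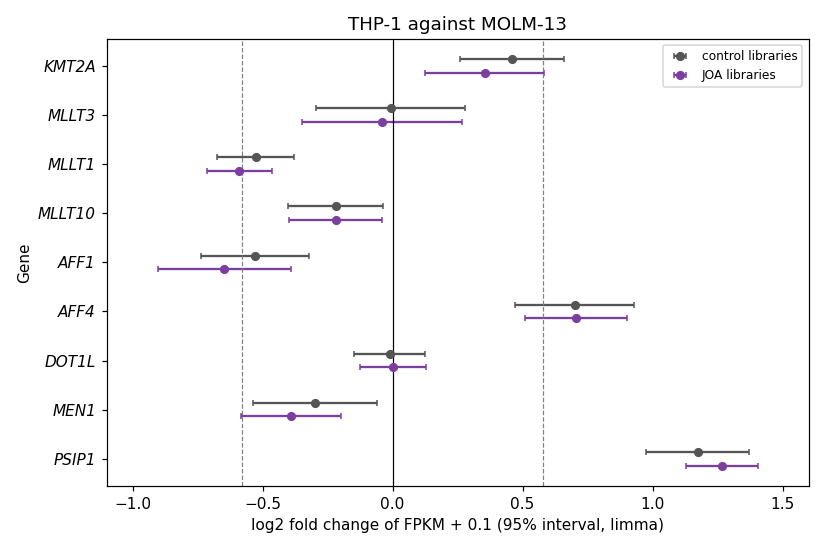
log2 fold change of THP-1 against MOLM-13 cells (horizontal axis, FPKM + 0.1) for each gene (vertical axis) in control and in JOA libraries; points are limma estimates, bars 95% intervals, and dashed lines mark the fold threshold of 0.58. PSIP1 stands apart at 1.17 and 1.27, and the intervals of MLLT3 and DOT1L cross 0.

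PSIP1, whose product LEDGF tethers menin and KMT2A to chromatin, showed the largest difference. It was at 8.87, 9.17 and 7.58 FPKM in control MOLM-13 cells and at 20.5, 18.8 and 18.8 FPKM in control THP-1 cells. With JOA it was at 7.68, 8.47 and 8.42 FPKM in MOLM-13 cells and at 20.1, 19.3 and 20.2 FPKM in THP-1 cells. Every THP-1 value was above every MOLM-13 value, and the ratio of the means was 2.26 in control and 2.42 in JOA libraries. On the log2 scale this was 1.17 with a standard error of 0.09 in control libraries and 1.27 with 0.06 in JOA libraries, and limma gave adjusted p = 6.34e-06 and 5.43e-07. At least as large a fold change in size was seen in 22.0% of all genes in the control comparison. PSIP1 shares 140 exonic bases with SNAPC3 on the opposite strand. SNAPC3 was at 5.88 FPKM in control MOLM-13 cells and 5.80 FPKM in control THP-1 cells.

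AFF4, which builds the super elongation complex together with AFF1, was at 3.86, 4.50 and 4.80 FPKM in control MOLM-13 cells and at 6.76, 7.08 and 7.66 FPKM in control THP-1 cells. The JOA values were 4.01, 4.46 and 4.93 FPKM in MOLM-13 and 7.14, 7.45 and 7.37 FPKM in THP-1 cells. The lowest THP-1 value was above the highest MOLM-13 value in both sets of libraries. In control libraries the log2 fold change came to 0.70 with a standard error of 0.10, and in JOA libraries to 0.71 with 0.09. For these limma gave adjusted p = 0.000310 and 0.000113.

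AFF1 moved the other way. The control MOLM-13 values of 15.6 to 17.4 FPKM were all above the control THP-1 values of 10.3 to 12.8 FPKM. With JOA they were 15.2 to 16.8 and 8.59 to 11.8 FPKM. The log2 fold changes of -0.53 in control and -0.65 in JOA libraries had standard errors of 0.09 and 0.11, and by limma adjusted p = 0.000880 and 0.000855. The call moved with single libraries: without THP-1 control replicate 1 the control value was -0.61 and was called, and without THP-1 JOA replicate 3 the JOA value was -0.52 and was not. With the values rescaled to TPM the JOA value was -0.53 and was not called either.

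As a result the balance of the AFF paralogs differed between the lines. The ratio of AFF1 to AFF4 within a library was 3.63 to 4.05 in control MOLM-13 cells and 1.34 to 1.90 in control THP-1 cells. With JOA it was 3.41 to 4.06 and 1.17 to 1.65. A ratio within a library does not depend on the scaling between libraries. The mean ratios were 3.78 ± 0.231 and 1.61 ± 0.278 in control cells (SD, n = 3), a difference of -1.25 on the log2 scale against a spread of 0.19 between libraries. The lowest p that 3 libraries against 3 allow is 0.1 (exact permutation test, two-sided).

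MLLT1, a reader of acylated histones, was at 22.4, 21.7 and 20.5 FPKM in control MOLM-13 cells and at 15.7, 14.7 and 14.3 FPKM in control THP-1 cells, with no overlap. With JOA it was at 23.1, 21.4 and 21.4 FPKM in MOLM-13 and at 15.0, 14.4 and 14.3 FPKM in THP-1 cells. The log2 fold changes, -0.53 in control and -0.59 in JOA libraries, had standard errors of 0.06 and 0.05, with adjusted p = 0.000127 and 2.19e-05 by limma. In JOA libraries the call was lost without MOLM-13 JOA replicate 1 (-0.55) and without THP-1 JOA replicate 3, where the value fell just short of the threshold at -0.58. It was also lost with TPM (-0.47) and with a pseudocount of 1 (-0.56). Its paralog MLLT3 did not pass, with 1.23 ± 0.125 FPKM in MOLM-13 and 1.22 ± 0.106 FPKM in THP-1 control cells (SD, n = 3). The MLLT3 log2 fold change was -0.01 with a 95% interval from -0.29 to 0.28 in control libraries, and -0.04 with an interval from -0.35 to 0.27 in JOA libraries. The ratio of MLLT1 to MLLT3 was therefore 15.0 to 20.0 in control MOLM-13 cells and 11.6 to 13.2 in control THP-1 cells.

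**Figure D4:**
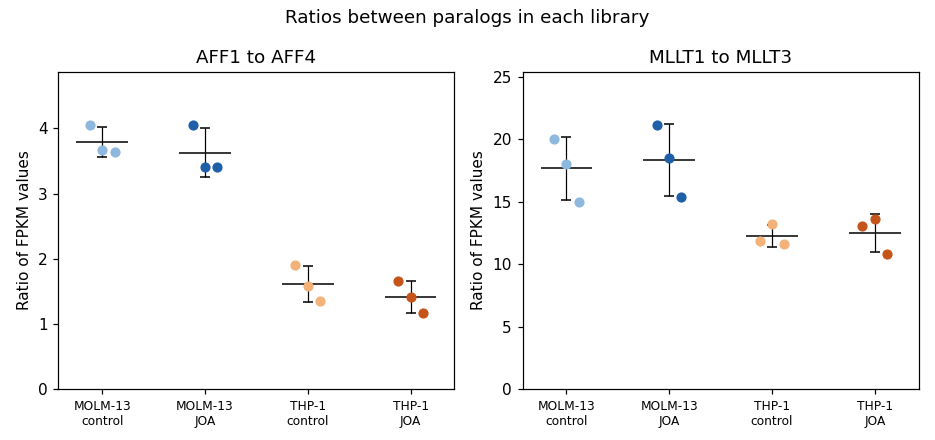
Ratios of FPKM values within a library (vertical axes, from 0) of AFF1 to AFF4 and of MLLT1 to MLLT3 in the 4 groups (horizontal axes); points are libraries, long bars means and error bars SD of 3 libraries. The AFF1 to AFF4 ratio is 3.41 or more in all MOLM-13 libraries and 1.90 or less in all THP-1 libraries.

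KMT2A was higher in THP-1 cells, at 3.84 to 4.16 FPKM against 2.68 to 3.00 in control libraries and at 3.40 to 3.82 FPKM against 2.49 to 3.06 with JOA, without overlap. Its log2 fold changes of 0.46 and 0.35 had standard errors of 0.09 and 0.10, and limma gave adjusted p = 0.00167 and 0.0117. MEN1, whose product binds KMT2A, was lower in THP-1 cells by log2 fold changes of -0.30 in control and -0.39 in JOA libraries, where limma gave adjusted p = 0.0294 and 0.00286. Its values overlapped in control libraries. MLLT10, the DOT1L cofactor, was at 6.32 to 7.30 FPKM in MOLM-13 and 5.57 to 5.98 FPKM in THP-1 control libraries, and at 6.23 to 7.17 and 5.45 to 6.05 FPKM with JOA, without overlap. It stood at -0.22 on the log2 scale in both comparisons, with adjusted p of 0.0364 and 0.0317 by limma. Neither MEN1 in control libraries nor MLLT10 in either set kept an adjusted p under 0.05 with the values rescaled to TPM (0.0869, 0.175 and 0.302). DOT1L, the methyltransferase, did not pass, and its 95% interval ran from -0.15 to 0.13 around a log2 fold change of -0.01 in control libraries and from -0.13 to 0.13 in JOA libraries. KMT2A shares 5599 exonic bases with the same-strand gene AP001267.5, and MLLT10 has processed pseudogenes. Neither AP001267.5 nor these pseudogenes have a row among the FPKM values, and the annotation used is not given. Whether reads of KMT2A and MLLT10 were split in counting is therefore unknown. PLEKHJ1, on the opposite strand of DOT1L, shares 529 exonic bases with it and was at 18.5 FPKM in MOLM-13 and 16.6 FPKM in THP-1 control cells.

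By the submitters' build, hg38 (GRCh38), the members lie on 6 chromosomes. KMT2A spans 118436464 to 118526832 on chromosome 11, where MEN1 spans 64803510 to 64811294. MLLT3 (20341665 to 20622543) and PSIP1 (15464066 to 15511019) are on the same arm of chromosome 9. MLLT1 (6210379 to 6279948) and DOT1L (2164149 to 2232578) share chromosome 19. AFF1 is on chromosome 4 (86935002 to 87141054), AFF4 on chromosome 5 (132875379 to 132963634) and MLLT10 on chromosome 10 (21524675 to 21743630). On chromosome 9 PSIP1 was higher in THP-1 cells while MLLT3 did not pass, and on chromosome 11 KMT2A was higher while MEN1 was lower. Whether copy number bears on these differences was not tested. MLLT3, PSIP1, MLLT1, AFF4 and MEN1 lie on the minus strand, the others on the plus strand.

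The promoters of the 4 members called between the lines in JOA libraries are shown, since these genes moved in opposite directions. The windows run from 250 bases before to 50 bases after the gene start in RefSeq (GRCh38.p14), 5′ to 3′ on the strand of the gene. Capitals mark the GC box, GGGCGG on either strand. PSIP1 and AFF1 each have a pair of annotated starts, and both windows of each are given.
PSIP1 first start (chr9:15510921-15511220, minus strand): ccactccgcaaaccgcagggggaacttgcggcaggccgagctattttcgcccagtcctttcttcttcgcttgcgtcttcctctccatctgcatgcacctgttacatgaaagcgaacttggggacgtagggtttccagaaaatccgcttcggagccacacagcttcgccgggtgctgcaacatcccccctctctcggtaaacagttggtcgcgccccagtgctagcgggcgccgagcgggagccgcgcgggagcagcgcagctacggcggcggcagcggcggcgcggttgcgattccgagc
PSIP1 second start (chr9:15510309-15510608, minus strand): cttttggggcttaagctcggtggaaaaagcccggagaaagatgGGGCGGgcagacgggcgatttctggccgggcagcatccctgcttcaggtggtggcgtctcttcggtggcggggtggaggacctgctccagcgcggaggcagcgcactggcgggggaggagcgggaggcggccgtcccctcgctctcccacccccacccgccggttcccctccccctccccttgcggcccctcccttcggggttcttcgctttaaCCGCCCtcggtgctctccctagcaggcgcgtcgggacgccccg
AFF4 (chr5:132963585-132963884, minus strand): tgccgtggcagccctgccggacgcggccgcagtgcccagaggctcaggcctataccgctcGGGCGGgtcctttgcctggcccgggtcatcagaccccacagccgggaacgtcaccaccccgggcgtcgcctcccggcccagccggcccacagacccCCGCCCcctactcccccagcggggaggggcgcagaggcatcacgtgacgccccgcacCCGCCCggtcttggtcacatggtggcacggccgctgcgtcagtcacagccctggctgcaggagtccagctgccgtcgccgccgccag
AFF1 first start (chr4:86934761-86935060, plus strand): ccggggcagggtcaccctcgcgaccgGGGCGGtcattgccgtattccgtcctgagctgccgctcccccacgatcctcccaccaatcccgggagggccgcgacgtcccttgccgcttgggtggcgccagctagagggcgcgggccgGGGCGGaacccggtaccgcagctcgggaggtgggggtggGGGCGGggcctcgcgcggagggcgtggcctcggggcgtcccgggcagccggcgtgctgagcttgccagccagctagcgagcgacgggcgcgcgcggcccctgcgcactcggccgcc
AFF1 second start (chr4:87007021-87007320, plus strand): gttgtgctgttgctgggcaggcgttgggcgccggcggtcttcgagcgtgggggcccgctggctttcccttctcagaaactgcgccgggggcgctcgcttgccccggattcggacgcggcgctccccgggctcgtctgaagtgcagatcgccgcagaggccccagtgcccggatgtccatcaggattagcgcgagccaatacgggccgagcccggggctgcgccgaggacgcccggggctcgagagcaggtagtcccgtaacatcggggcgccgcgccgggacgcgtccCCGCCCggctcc
MLLT1 (chr19:6279926-6280225, minus strand): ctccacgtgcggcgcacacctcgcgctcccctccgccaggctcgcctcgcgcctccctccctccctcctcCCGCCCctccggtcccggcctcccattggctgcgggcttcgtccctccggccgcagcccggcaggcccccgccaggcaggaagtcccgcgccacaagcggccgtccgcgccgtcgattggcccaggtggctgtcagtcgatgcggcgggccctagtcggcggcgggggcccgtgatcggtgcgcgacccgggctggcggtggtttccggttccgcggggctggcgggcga

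Of the 9 members 8 had a promoter entry, with 12 windows in all. A GC box was in 10 of the 12 windows, against 45.0% of 35116 promoter windows in the table, and each of the 8 members had one in at least 1 window. The CCAAT box (CCAAT on either strand) was in 7 of the 12, against 34.6% of all windows, and in 5 of the 8 members. The MEN1 windows overlap and hold the same CCAAT, which is counted in each. The ETS core CCGGAA (either strand) was in 3 of the 12, against 17.2% of all windows. The letters TATAAA (either strand) were in 0 of the 12 windows and in 11.5% of all. The GC content of the member windows was 56.3% to 80.3%, with a median of 58.7% over all windows. For the genes higher and lower in THP-1 cells it was 64.0% and 70.7% for PSIP1, 74.7% for AFF4 and 77.7% and 72.7% for AFF1 and 77.7% for MLLT1, so that the ranges of the 2 directions overlapped.

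Other parts of the same machinery were described from lists of genes. In response to JOA, 0 genes of these lists were called in either line. Among all genes tested the called share was 0% for MOLM-13 and 0.134% for THP-1, so 0 calls do not set the lists apart. The lists held 8 subunits of the COMPASS core and KMT2A complex, 5 related methyltransferases, 12 elongation genes, 6 PAF1 complex genes, 10 other fusion partners and 4 target genes. The median log2 fold changes of these lists were -0.06 to 0.04 in MOLM-13 cells and -0.11 to 0.06 in THP-1 cells. All 5 related methyltransferases had a log2 fold change below 0 in THP-1 cells (-0.13 to -0.06), with adjusted p of 0.396 to 0.774 by limma, and above 0 in MOLM-13 cells (0.00 to 0.09).

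Between the lines the KMT2A complex differed in a subunit that was not a member. ASH2L, a core subunit that stimulates the methyltransferases, was at 31.5 ± 0.428 FPKM in control MOLM-13 cells and 10.8 ± 0.501 in control THP-1 cells (SD, n = 3). The log2 fold change was -1.54 with a standard error of 0.06 (limma, adjusted p = 2.06e-07) in control and -1.38 in JOA libraries. TASP1, the protease that cleaves KMT2A, was also lower, with -0.69 and adjusted p = 0.000694 by limma. Thus 2 of 8 genes of the complex were called lower and 0 higher, against 19% and 25% of all genes. Of the 8, 4 had a log2 fold change below 0 and 4 above it, with a median of -0.03. On the adjusted p alone 3 passed by limma, against 71.2% of all genes. Among the 5 related methyltransferases KMT2D was called, with 6.79 ± 0.481 FPKM in MOLM-13 and 15.6 ± 1.71 FPKM in THP-1 control cells (SD, n = 3).

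Of the 12 elongation genes 4 were called higher and 2 lower in control THP-1 cells, where 25% of all genes were called higher and 19% lower. On the adjusted p alone 9 passed by limma, against 71.2% of all genes. In all 8 had a log2 fold change above 0, and the share of all genes above 0 is not given. The median was 0.28, against 0.06 over all genes. AFF2, another paralog of AFF1, was listed at 0 in 2 of 3 control and 3 of 3 JOA libraries of MOLM-13 cells. In THP-1 cells it was at 0.510 ± 0.0514 FPKM in control libraries and 0.434 ± 0.0857 with JOA (SD, n = 3). AFF3 went the other way, at 3.17 ± 0.147 FPKM in MOLM-13 and 1.21 ± 0.187 in THP-1 control cells. ELL2, an elongation factor of the same complex, was higher in THP-1 cells, at 1.79 ± 0.108 FPKM against 0.348 ± 0.0662. All 4 AFF genes thus passed on the adjusted p alone by limma in control libraries, as did 71.2% of all genes. AFF2 and AFF4 were higher and AFF1 and AFF3 lower in THP-1 cells, with AFF1 under the fold threshold in control libraries. The 4 were set side by side after their values were seen.

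Of the 6 genes of the PAF1 complex, which binds the retained part of KMT2A, limma called 0 in control libraries, against 44% of all genes. On the adjusted p alone 2 passed, against 71.2%. In JOA libraries 0 were called, against 45% of all genes, and 4 passed on the adjusted p alone, against 73.8%. Among 10 other fusion partners 3 were called higher and 1 lower in control libraries (25% and 19% of all genes), and 5 higher and 1 lower in JOA libraries (26.1% and 18.9%). Above 0 lay 7 of the 10 in each comparison. On the adjusted p alone 8 passed in each, against 71.2% of all genes in control and 73.8% in JOA libraries. Their median log2 fold change was 0.53 in control libraries, against 0.06 over all genes. TET1, a methylcytosine dioxygenase, stood at 2.18 on the log2 scale in control libraries (standard error 0.16), and limma gave adjusted p = 7.33e-06. MLLT11 was at 1.31 (adjusted p = 0.000872 by limma) and GAS7 at -1.14 (adjusted p = 0.000196). Among the target genes HOXA9 was at 51.0 ± 5.09 FPKM in MOLM-13 and 17.6 ± 2.11 FPKM in THP-1 control cells (SD, n = 3), and MEIS1 at 10.5 ± 0.782 and 2.79 ± 0.166 FPKM. Both were called, with log2 fold changes of -1.53 and -1.88, and HOXA10 and PBX3, at 0.25 and 0.04, were not.

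The genes whose pattern over the 12 libraries was most like that of a member were named for the fusion pair. Likeness was the root mean square difference in log2(FPKM + 0.1), each gene centred on its own mean, among 10067 genes with a mean of at least 1 FPKM. For KMT2A these were CREB1 (0.0649), EMSY (0.0661) and HELZ (0.0687), where the median gene differed by 0.325. For MLLT3 they were ZNF131 (0.0646), PURA (0.0762) and FAM53C (0.0771), with a median of 0.288. The libraries share the line and the replicate number, so likeness follows the line difference for KMT2A.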

How the data were processed

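Stranded, paired-end mRNA-seq libraries were made from both lines, 3 control and 3 JOA libraries each. The deposited table holds the authors' FPKM of every library separately. The submitters' processing notes name Trimmomatic, HISAT2, Cufflinks, HTSeq and hg38, with no versions. The annotation, the scaling between libraries and the use of strand in counting are not given in the sources used here. Counts were not used, so the authors' DESeq test was not run.

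FPKM values were used as deposited. Genes with a mean of at least 0.1 FPKM over the 6 libraries of a comparison were kept, and limma 3.58.1 in R 4.3.3 (lmFit, eBayes with a trend) was run on log2(FPKM + 0.1), a scale that understates changes of low genes, for each of 4 comparisons and for the interaction. Adjustment (Benjamini-Hochberg) was over all genes. Calls needed an adjusted p under 0.05 and a log2 fold change of at least 0.58 in size, the study's thresholds. The interaction was called on the adjusted p alone.

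Within a line the replicate numbers of the labels paired the libraries. Control and JOA libraries of the same number deviated together from their group means (correlation 0.360 to 0.529 for MOLM-13, 0.263 to 0.510 for THP-1), and those of different numbers did not (0.0581 or less). Alternatives were pseudocounts of 1 and 0.01, a mean filter of 1 FPKM and none, 3 rescalings (TPM, median ratio, quantile), no eBayes trend, a block on replicate number, 1 fit on all 12 libraries, the adjusted p alone, and leaving out each library.

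The genes named were the 9 members, for each list up to 3 called genes with the largest change per comparison, and 3 nearest genes for KMT2A and MLLT3. Some called list genes were only counted, and uncalled list genes are named in the text where a list is described; AFF4 and AFF1 were set beside AFF2 and AFF3 after their values were seen. The members and lists were chosen with earlier results of these data known. Gene positions came from GENCODE 29 (GRCh38) and promoters from RefSeq (GRCh38.p14). DOT1L had no promoter entry. The procedure was tested on simulated data without replicate pairing, with planted changes larger than the JOA effects of the members. That test does not show whether changes as small as theirs would be found. Python 3.11.15 was used for descriptions and plots.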

Additional observations from a re-analysis of the deposited data

How the results depend on the processing

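In the responses to JOA and their difference between the lines, 0 members were called under any setting tried. Between the lines in control libraries 2 members were called, 7 with the adjusted p alone and 2 to 3 when 1 library was left out. In JOA libraries 4 were called, 2 with TPM, 7 with the adjusted p alone and 2 to 4 when 1 library was left out. AFF1 and MLLT1 moved across the fold threshold, and PSIP1 and AFF4 were called throughout. Over all genes the 17 calls for JOA in THP-1 cells became 8 with a pseudocount of 1, 0 without a filter, 1 without the eBayes trend, 51 in the fit on all 12 libraries and 38 with the adjusted p alone, and 0 to 1 when 1 library was left out. Among the 14 called with quantile normalization 21.4% were higher, against 41.2% of the 17. The interaction gave 1 gene with a pseudocount of 1, with TPM or with median ratio scaling, and 3 without a filter, which also gave 1 gene for JOA in MOLM-13 cells. MEN1 in control libraries (up to 0.0910) and MLLT10 in both sets (up to 0.128 and 0.1002) lost an adjusted p under 0.05 by limma when any of 4 to 5 of the 6 libraries was left out. The causes of these shifts were not tested. FPKM carry no depth, so counting error is unknown.

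With the replicate number as a block no member's call changed. The block gave 161 genes for JOA in THP-1 cells, 0 in MOLM-13 cells and 6 for the interaction. Between the lines same-numbered libraries correlated only weakly, at 0.0662 to 0.187 in control and 0.0258 to 0.108 in JOA libraries. Those of different numbers lay at -0.120 to 0.0675 in control and -0.0837 to 0.0443 in JOA libraries. The block between the lines gave 5593 and 5707 genes, 2 and 4 of them members, and an adjusted p for MLLT10 of 0.0504 in JOA libraries by limma.

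Small fold changes near 0 changed sign, and none of these was called. With TPM, MLLT10 became 0.013 for JOA in THP-1 cells and 0.035 in the interaction, while between the lines MLLT3 became 0.074 in control and 0.073 in JOA libraries and DOT1L 0.071 in control libraries. With median ratio scaling, DOT1L became -0.022 for JOA in THP-1 cells, -0.029 between the lines with JOA and -0.017 in the interaction, where AFF4 became -0.025. With quantile normalization, AFF4 became -0.011 and DOT1L -0.026 for JOA in THP-1 cells, DOT1L -0.012 between the lines with JOA, and AFF4 -0.013 and DOT1L -0.010 in the interaction. When 1 library was left out, the log2 effect of JOA in MOLM-13 cells ran for KMT2A from -0.094 to 0.048, MLLT3 from -0.12 to 0.049, MLLT1 from -0.0085 to 0.059, MLLT10 from -0.061 to 0.045, AFF1 from -0.078 to 0.0021, AFF4 from -0.062 to 0.0999 and DOT1L from -0.026 to 0.026. In THP-1 cells it ran for MLLT3 from -0.14 to 0.012, MLLT1 from -0.062 to 0.0017, MLLT10 from -0.044 to 0.0296, AFF4 from -0.0094 to 0.0799, DOT1L from -0.013 to 0.037 and MEN1 from -0.0052 to 0.093. The line difference ran for MLLT3 from -0.066 to 0.066 and DOT1L from -0.0302 to 0.022 in control libraries, and for MLLT3 from -0.12 to 0.054 and DOT1L from -0.029 to 0.033 in JOA libraries. The interaction ran for MLLT3 from -0.12 to 0.061, MLLT10 from -0.056 to 0.0498, AFF1 from -0.22 to 0.0071, AFF4 from -0.069 to 0.093, DOT1L from -0.021 to 0.045 and MEN1 from -0.16 to 0.015.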
